A study of Rattus norvegicus with 33 samples.

Results

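Soleus muscle of rats with a long-standing, complete spinal cord transection was compared after 7 days and after 1 day of daily electrical stimulation (ES), which asks how the first response to ES differs from the state at the end of the first week. The groups, chosen by the sample labels, were SCI-ES 7 days and SCI-ES 1 day, with 3 animals each and 1 Affymetrix array per animal, so that 6 of the 33 arrays of the series entered the contrast. Genes were all those with an array row that carries 1 gene symbol, 14506 in number, of which 14456 had a mean of at least 3 on the log2 scale over the 15 arrays of the SCI experiment and were tested. All 6 animals were female Wistar rats, transected at 9 weeks of age. In both groups the left gastrocnemius tendon was cut (GA in the labels) and a stimulator was implanted beside nerves of the left leg 14 weeks after transection, and ES began at 16 weeks with 1 hour per day at 1.5 volts and 40 Hz, in cycles of 2 seconds of current and 18 seconds of rest. The same experiment holds SCI-ES 3 days, SCI (transection, tenotomy and sham implantation, with no ES, taken 21 days after that surgery) and Sham-SCI (laminectomy only, with no tenotomy), 3 arrays each. A second experiment of 18 arrays followed rats with an intact spinal cord, 22 to 23 weeks old, after GA or Sham-GA. Soleus from the 7-day group was taken later after implantation and tenotomy, and at a greater age, than soleus from the 1-day group, so the number of ES sessions, the time since surgery and age cannot be told apart. The study states that about 24 hours passed between the final ES session and removal of the muscle.

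Soleus is a postural muscle that is active for much of the day in an intact animal and is rich in slow-twitch, oxidative fibers. In an active, innervated fiber the nicotinic acetylcholine receptor is made almost only by nuclei beneath the nerve ending, whereas denervated or inactive fibers make its subunits along their whole length, together with myogenic transcription factors such as myogenin. Contraction and stretch also act on a group of sarcomere-bound sensors, among them Ankrd1, and on chaperones that handle damaged thin filament and Z-disc proteins.

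The regions upstream of the genes of the muscle acetylcholine receptor are shown here because these genes were among those with the lowest values at 7 days relative to 1 day, and because the myogenic factors bind E-boxes, the letters CANNTG. Each line gives the 150 bases before the RefSeq start (build GRCr8), 5′ to 3′ on the gene's own strand, with every CANNTG in capitals, a motif that reads the same on both strands. Chrna1 lies on the minus strand (chr3:78877354-78877503), Chrnd (chr9:95310166-95310315) and Chrng (chr9:95325834-95325983) on the plus strand, and Chrne (chr10:55834155-55834304) and Chrnb1 (chr10:55015108-55015257) on the minus strand.
Chrna1: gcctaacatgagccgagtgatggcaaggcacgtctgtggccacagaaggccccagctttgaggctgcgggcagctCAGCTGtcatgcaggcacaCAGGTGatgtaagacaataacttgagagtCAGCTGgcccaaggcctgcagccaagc
Chrnd: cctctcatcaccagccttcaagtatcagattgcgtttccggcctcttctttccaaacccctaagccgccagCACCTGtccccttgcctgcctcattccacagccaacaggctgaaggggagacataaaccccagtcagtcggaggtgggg
Chrng: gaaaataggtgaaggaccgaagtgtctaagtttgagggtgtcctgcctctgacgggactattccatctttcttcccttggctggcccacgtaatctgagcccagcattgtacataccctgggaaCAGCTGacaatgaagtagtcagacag
Chrne: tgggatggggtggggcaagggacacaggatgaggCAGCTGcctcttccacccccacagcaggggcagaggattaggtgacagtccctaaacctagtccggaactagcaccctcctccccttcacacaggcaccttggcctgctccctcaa
Chrnb1: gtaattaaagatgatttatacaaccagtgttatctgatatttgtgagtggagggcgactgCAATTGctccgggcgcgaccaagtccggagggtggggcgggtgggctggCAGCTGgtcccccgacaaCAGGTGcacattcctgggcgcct
The window of Chrna1 held 3 such motifs and that of Chrnb1 also 3, while Chrnd, Chrng and Chrne held 1 each. The motif is common: 46.6% of the 33469 windows of this length in the table hold CANNTG, and 7.63% hold CAGCTG, the form found in all of these genes but Chrnd. Of 194 windows (176 genes) of genes at least 1.5 fold lower at 7 days with no overlap between the groups, 46.9% held CANNTG and 11.9% CAGCTG. For all 12493 windows of genes tested the shares were 41.7% and 7.84%. Chrna1 and Chrng, which hold CAGCTG, are themselves among these lower genes. A match is a description of letters, not of a bound site, and these shares were not tested.

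Expression is given on the log2 scale throughout, so that a difference of 1 is a change of 2-fold. Arrays had like distributions, with medians between 6.45 and 6.54 over all rows. The tissue carried skeletal muscle markers at high levels on every array, with a mean of 12.91 to 13.16 over 11 defining muscle fiber genes in the 6 arrays. The 1-day arrays differed from each other by a root mean square of 0.333 to 0.499 over all genes, and the 7-day arrays by 0.303 to 0.463. Several arrays stood apart. SCI-ES 1 day replicate 2 had slow-fiber genes at a mean of 12.11, against 10.89 to 11.32 on the other 5 arrays, and SCI-ES 7 days replicate 2 had adipocyte genes at 9.85, against 8.22 and 8.29. SCI-ES 1 day replicate 1 was the farthest from its group, with 510 genes at least 1 log2 unit from the mean of the other 1-day arrays, and SCI-ES 7 days replicate 3 was the farthest from its own, with 339. Many, though not all, of the results that rest on these arrays are given with and without them.

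No gene passed the threshold of the test, an adjusted p under 0.05 with a change of at least 1.5 fold. Of 14456 genes 0 were called by limma with Benjamini-Hochberg adjustment (0% of those tested, lowest adjusted p 0.244). An analysis of variance, the kind of test the study used, also gave 0 with the same adjustment and fold minimum. Its p is for any difference among the 5 groups, and without adjustment it gave 182 genes. The study names no adjustment, and its filter on variance was not applied in this test. At an unadjusted p under 0.05, 1754 genes (12.1%) stood out, 634 higher at 7 days (4.39%) and 1120 lower (7.75%). Genes whose 3 values at 7 days were all higher, or all lower, than each of the 3 values at 1 day, called separated here, numbered 2212 (15.3%), 942 higher (6.52%) and 1270 lower (8.79%). Separated genes with a change of at least 1.5 fold numbered 278 (1.92%), of which 57 were higher at 7 days (0.394%) and 221 were lower (1.53%). The median log2 fold change of all genes was 0.02, and 7794 genes lay above 0 and 6662 below. In the lower set, SCI-ES 1 day replicate 1 was the highest 1-day array for 181 of 221 genes (81.9%, against 37.9% of all genes), and replicate 2 was the lowest for 160. The balance of directions rested on SCI-ES 7 days replicate 3, without which 450 genes were separated and at least 1.5 fold higher and 342 lower, although 3 arrays against 2 separate more easily.

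Calls appeared in 2 alternative fits. A single fit of all 33 arrays, which takes the spread from both experiments, called 13 genes (0.0899%), all lower at 7 days: the receptor subunits Chrna1 and Chrnd, Slc51a, Rrad, Rnase17, Faah, Asb5, Panx1, Tbx3, Ppp1r11, Msantd5, Skic2 and Pex6. Without SCI-ES 1 day replicate 2, 99 genes were called (0.685%), 24 higher (0.166%) and 75 lower (0.519%). Of these 99 genes, 42 were separated and at least 1.5 fold apart when all 6 arrays were used, and 7 were also among the 13. Leaving out any other single array of the 6 gave 0 calls. Replicate 2 was the lowest 1-day array for 160 of the 221 lower genes (72.4%, against 34.1% of all genes). Leaving it out thus widens many of the differences by itself. A pass without it is given below as dependence on that array, not as support for a change. The values below are from the 15-array fit unless another is named, and every adjusted p in that fit was 0.244 or more, so none is repeated for single genes.

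**Figure D1:**
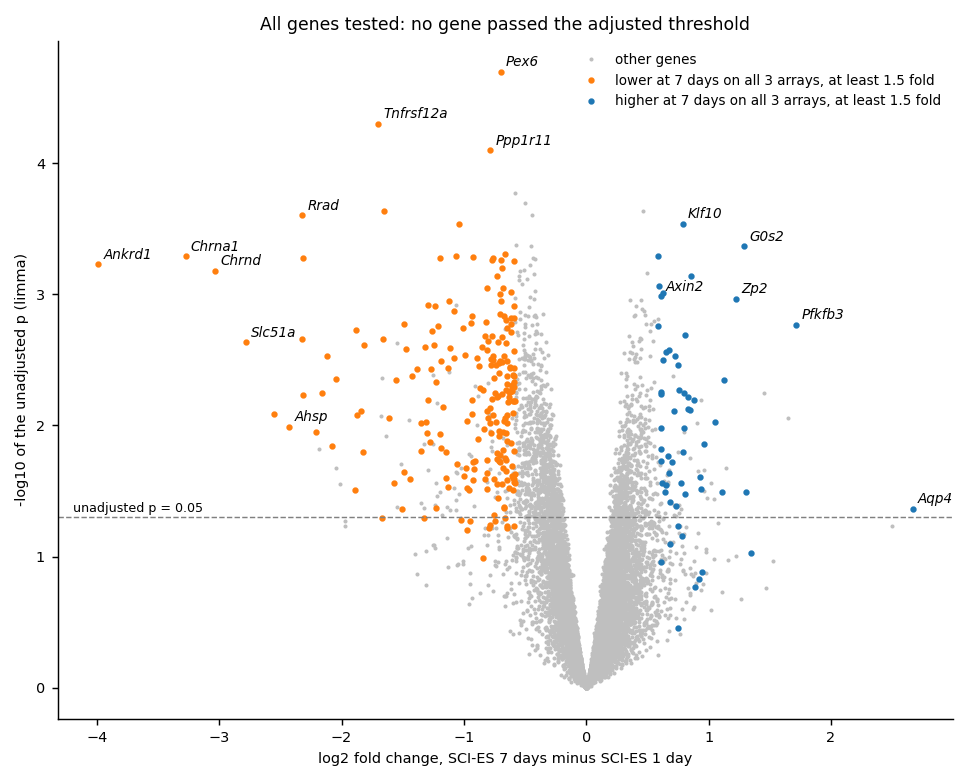
Log2 fold change (SCI-ES 7 days minus SCI-ES 1 day, horizontal) against -log10 of the unadjusted limma p (vertical) for 14456 genes, 1 point per gene. Orange points are the 221 genes lower and blue points the 57 genes higher on all 7-day arrays by at least 1.5 fold, and the orange points reach -3.99 (Ankrd1) while the blue ones reach 2.67 (Aqp4).

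Genes of the acetylcholine receptor and the motor endplate had the lowest median of the lists with more than 6 members. Of 18 members measured, 14 lay below 0 and 4 above, with a median log2 fold change of -0.71, against 0.02 for all genes, and of -0.40 without SCI-ES 1 day replicate 1. None was called, 8 were at an unadjusted p under 0.05 in the lower direction, and 9 were separated lower (8.79% of all genes) and 1 higher (6.52%). Chrna1, the ligand-binding alpha subunit of the receptor (transcript cluster 10846210), measured 13.39, 11.76 and 11.78 on the 1-day arrays and 9.78, 8.79 and 8.52 on the 7-day arrays. All 1-day values lay above all 7-day values, and the mean difference was -3.28 (SE 0.72, 9.69-fold lower). In the fit of all 33 arrays it passed the test (adjusted p = 0.025, limma). Chrnd, the delta subunit (transcript cluster 10924974), measured 11.40, 9.75 and 9.74 at 1 day and 7.47, 7.41 and 6.90 at 7 days. The groups did not overlap, with a difference of -3.04 (SE 0.69, 8.21-fold lower), and the gene passed in the 33-array fit (adjusted p = 0.023, limma). Without SCI-ES 1 day replicate 1, the highest array for both, the differences were -2.74 and -2.48.

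The other subunits were also lower on average. Chrng, the fetal gamma subunit, measured 10.92, 7.56 and 7.94 at 1 day and 7.02, 6.73 and 6.44 at 7 days. The groups did not overlap, but the difference of -2.08 (SE 0.74) was -1.02 without replicate 1 of the 1-day group. Chrne, the adult epsilon subunit that replaces gamma at mature endplates, measured 10.04, 7.08 and 9.08 at 1 day and 7.69, 6.57 and 7.02 at 7 days. Here the groups overlapped through 1-day replicate 2, and without that array the difference went from -1.64 to -2.47 and passed the test (adjusted p = 0.021, limma), whereas it was -0.99 without replicate 1. Chrnb1, the beta subunit, differed by -0.67 (SE 0.39), with overlapping groups, and by -0.27 without 1-day replicate 1. The promoters with 3 E-boxes each belonged to the subunit with the largest difference and to the one with the smallest.

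Among the genes that organize the endplate, Musk, the receptor kinase that clusters acetylcholine receptors, measured 10.38, 7.95 and 8.55 at 1 day and 7.51, 7.01 and 7.63 at 7 days. The groups did not overlap, with a difference of -1.57 (SE 0.64) that was -0.86 without 1-day replicate 1. Its agrin-binding partner Lrp4 differed by -0.55 (SE 0.30), or -0.35 without that array, and Rapsn, the scaffold of the receptor, by -0.39 (SE 0.19) with overlapping groups. Ncam1, an adhesion molecule that spreads over denervated fibers, measured 11.78, 9.34 and 10.34 at 1 day and 8.96, 8.36 and 8.01 at 7 days, a difference of -2.04 (SE 0.60). Runx1, a transcription factor made by denervated muscle, measured 12.56, 9.86 and 10.64 at 1 day and 8.87, 9.12 and 8.58 at 7 days, a difference of -2.16 (SE 0.66). Neither gene's groups overlapped, and without 1-day replicate 1 the differences were -1.40 for Ncam1 and -1.39 for Runx1. On the other side of 0 lay Ache, the esterase that breaks down acetylcholine, at 0.57 (SE 0.51) with overlapping groups and at 0.01 without 1-day replicate 1, and Utrn, a dystrophin relative of the postsynaptic membrane, at 0.31 (SE 0.14) with all 7-day arrays above all 1-day arrays.

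**Figure D2:**
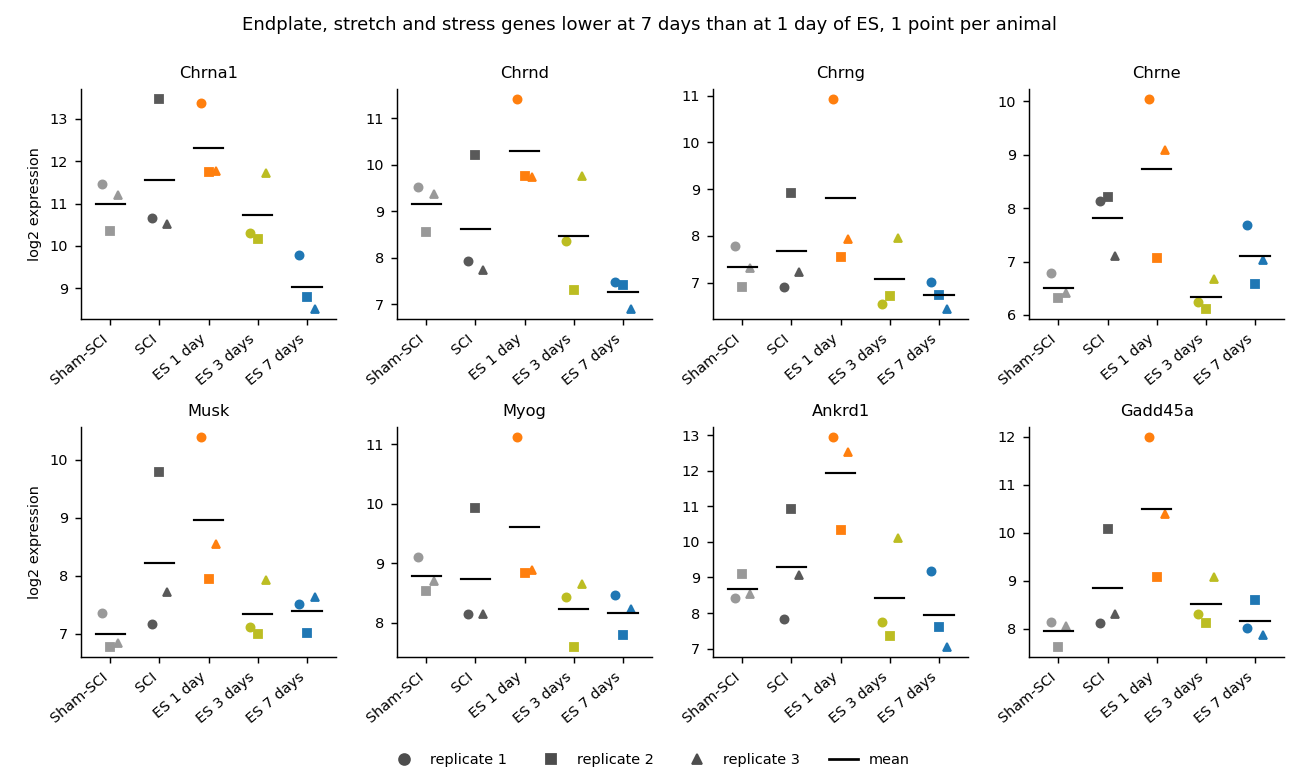
Log2 expression (vertical) of 8 genes in the 5 groups of the SCI experiment, 1 point per animal with the symbol giving the replicate and a line at the group mean. The orange 1-day points lie above the blue 7-day points in each panel but that of Chrne, and 1-day replicate 1 is the highest 1-day point in each panel.

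Sensors of stretch and load came next. Of 13 stretch-responsive sarcomere proteins measured, 10 lay below 0 and 3 above, with a median of -0.28, or -0.13 without SCI-ES 1 day replicate 2, and 4 were separated lower (8.79% of all genes) and 0 higher (6.52%). Ankrd1, a titin-bound repressor of transcription that loaded or injured muscle makes in large amounts (transcript cluster 10729834), measured 12.94, 10.34 and 12.51 at 1 day and 9.18, 7.60 and 7.05 at 7 days. It had the most negative value of all genes, -3.99 (SE 0.89, 15.9-fold lower), without overlap. Without 1-day replicate 2, its lowest 1-day array, the difference was -4.78 and passed the test (adjusted p = 0.037, limma). Without replicate 1 it was -3.48. Csrp3, a Z-disc LIM protein, differed by -1.07 (SE 0.48) with overlapping groups. Xirp2, an actin-binding protein at sites of fiber repair, measured 13.02 to 13.26 at 1 day and 12.38 to 13.01 at 7 days, with no overlap and a difference of -0.45 (SE 0.16). Without SCI-ES 7 days replicate 2 the values were -0.57 for Csrp3 and -0.30 for Xirp2. Nrap, a Z-disc assembly protein and the upper end of the list, differed by 0.26 (SE 0.25), and by -0.10 without 1-day replicate 1.

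Other genes with a small unadjusted p had different known roles. Rrad, a small GTPase that restrains voltage-gated calcium channels, measured 8.82, 7.44 and 7.68 at 1 day and 6.09, 5.33 and 5.55 at 7 days. The groups did not overlap, the difference was -2.33 (SE 0.47, 5.01-fold lower), and the gene passed both in the 33-array fit (adjusted p = 0.028) and without 1-day replicate 2 (adjusted p = 0.046, limma). Tnfrsf12a, the receptor of the cytokine TWEAK, measured 10.05, 8.94 and 9.95 at 1 day and 7.92, 7.69 and 8.22 at 7 days, a difference of -1.70 (SE 0.29) without overlap. It passed without 1-day replicate 2 (adjusted p = 0.0049) and not in the 33-array fit (adjusted p = 0.097, limma). Panx1, a large-pore membrane channel that releases ATP, differed by -1.04 (SE 0.21) and Klhl40, a kelch protein that stabilizes thin filament proteins, by -0.93 (SE 0.20). Panx1 measured 7.60 to 8.11 at 1 day and 6.69 to 7.11 at 7 days, and Klhl40 measured 10.47 to 10.93 and 9.40 to 10.12. Rcan1, a calcineurin inhibitor that is itself a calcineurin target, measured 9.75, 9.62 and 9.91 at 1 day and 8.87, 8.26 and 8.43 at 7 days. There was no overlap, with a difference of -1.24 (SE 0.30). In the calcineurin and NFAT list 1 of 13 genes was separated lower, a share close to the 8.79% of all genes, and the median was -0.02.

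Pex6, an ATPase of peroxisome assembly, had the smallest p of all, with 8.35, 8.33 and 8.13 at 1 day and 7.63, 7.51 and 7.56 at 7 days, a difference of -0.70 (SE 0.11). Ppp1r11, an inhibitor of protein phosphatase, measured 9.65, 9.18 and 9.16 at 1 day and 8.57, 8.59 and 8.46 at 7 days, a difference of -0.79 (SE 0.14). Both passed in the 33-array fit, with adjusted p values of 0.012 each (limma). B3galt2, a galactosyltransferase, differed by -1.65 (SE 0.33) and Abtb1, an ankyrin and BTB domain protein, by -0.67 (SE 0.15), both without overlap and without passing in any alternative. Slc51a, a subunit of a transporter of bile acids and steroids, measured 10.997, 7.52 and 7.72 at 1 day and 6.07, 5.72 and 6.09 at 7 days, a difference of -2.78 (SE 0.74). One animal, 1-day replicate 1, carried much of that difference, which was -1.66 without it, although no 1-day value fell among the 7-day values. Faah, the hydrolase of endocannabinoids, showed a like pattern, with 9.35, 6.58 and 7.66 against 5.85, 5.62 and 5.78, a difference of -2.12 (SE 0.58) that was -1.37 without it. Dclk1, a doublecortin-like kinase, measured 11.47, 8.25 and 9.41 at 1 day and 8.09, 7.89 and 6.21 at 7 days, a difference of -2.32 (SE 0.71), or -1.44 without the same animal.

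Genes of the satellite cell and myogenic list had lower means at 7 days in nearly every member. Of 12 satellite cell and myogenic genes measured, 11 lay below 0 and 1 above, with a median of -0.38, and 3 were separated lower (8.79% of all genes), 0 higher (6.52%). Myod1, the factor that commits cells to muscle, measured 11.42, 9.30 and 10.27 at 1 day and 8.96, 8.39 and 9.17 at 7 days, a difference of -1.49 (SE 0.58). Myog, which drives terminal differentiation and the receptor subunit genes of denervated muscle, measured 11.12, 8.84 and 8.88 at 1 day and 8.47, 7.80 and 8.24 at 7 days, a difference of -1.45 (SE 0.58). Myf6 of the same family differed by -0.94 (SE 0.30). None of these 3 genes overlapped between groups, and without 1-day replicate 1 their differences were -0.94 (Myod1), -0.69 (Myog) and -0.65 (Myf6). Of the embryonic and neonatal sarcomere genes, 3 were measured and all lay below 0, among them Myh3, the embryonic myosin heavy chain, at -1.23 (SE 0.66) and Actc1, cardiac actin, at -1.14 (SE 0.50), each with overlapping groups. Without SCI-ES 7 days replicate 2 the value for Actc1 was -0.69.

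In the list of genes that denervation and atrophy raise, 14 of 18 lay below 0 and 4 above, with a median of -0.26, and 4 were separated lower (8.79% of all genes), 0 higher (6.52%). Gadd45a, a nuclear stress protein that denervation induces, measured 11.99, 9.09 and 10.40 at 1 day and 8.02, 8.60 and 7.87 at 7 days. The groups did not overlap, with a difference of -2.33 (SE 0.62, 5.01-fold lower). It was -1.58 without 1-day replicate 1, the highest array. Without replicate 2 it was -3.03 and passed the test (adjusted p = 0.034, limma). The ubiquitin ligases used as readouts of atrophy were less far apart. Fbxo32 measured 11.89, 12.02 and 11.62 at 1 day and 11.53, 11.13 and 11.61 at 7 days, a difference of -0.42 (SE 0.19). Its partner Trim63 differed by -0.32 (SE 0.24) with overlapping groups. Without SCI-ES 7 days replicate 2 these values were -0.27 (Fbxo32) and -0.03 (Trim63). Mt1, a metal-binding protein of atrophying muscle, differed by -1.50 (SE 0.67), and by -0.68 without 1-day replicate 1. Mstn, the secreted inhibitor of muscle growth, measured 9.02, 7.13 and 8.66 at 1 day and 6.44, 5.89 and 6.84 at 7 days, a difference of -1.88 (SE 0.61) without overlap. The growth factor and IGF axis as a whole was evenly split, with 9 of 18 members above 0 and 9 below and a median of 0.08.

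Early stress and immediate early genes were not lower as a group, with 15 of 27 below 0, 12 above and a median of -0.04, but a few members were. Atf3, a stress-induced transcription factor, measured 8.78, 9.95 and 10.34 at 1 day and 8.34, 7.94 and 8.34 at 7 days, a difference of -1.49 (SE 0.38) without overlap. Cdkn1a, the cell cycle inhibitor p21, measured 12.52, 9.89 and 11.28 at 1 day and 9.89, 8.87 and 8.88 at 7 days. The groups thus met at 9.89, and the difference was -2.01 (SE 0.82), or -1.37 without 1-day replicate 1. Myc, a driver of growth and ribosome production, measured 6.61 to 6.99 at 1 day and 6.11 to 6.35 at 7 days, a difference of -0.59 (SE 0.15). The orphan receptor Nr4a1, the upper end of the list, differed by 0.40 (SE 0.54), and by -0.12 without 1-day replicate 1.

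Genes of protein quality control differed by small amounts that pointed the same way in most members. Of 30 proteasome subunits, 29 lay below 0 and 1 above, with a median of -0.32 (-0.21 without SCI-ES 1 day replicate 1), and 16 were separated lower, against 8.79% of all genes. The proteasome list's mean was 10.59, 10.27 and 10.38 on the 1-day arrays and 10.09, 9.97 and 10.26 on the 7-day arrays. The highest 7-day value thus lay just under the lowest 1-day value. The range ran from Psmd11, a lid subunit of the regulatory particle, at -0.71 (SE 0.20) to Psma7, a core subunit, at 0.00 (SE 0.15). Psmd11 measured 11.01, 10.31 and 10.53 at 1 day and 9.96, 9.66 and 10.09 at 7 days, and the core subunit Psma5 measured 9.26, 8.83 and 8.93 against 8.49, 8.38 and 8.64, a difference of -0.50 (SE 0.13). Of 33 cytosolic chaperones, 31 lay below 0 and 2 above, with a median of -0.25, and 7 were separated lower (8.79% of all genes), 0 higher (6.52%). Hspb8, a small heat shock protein, measured 12.43, 10.98 and 12.03 at 1 day and 10.69, 10.23 and 10.83 at 7 days. The difference was -1.23 (SE 0.36). Hspb8 passed without 1-day replicate 2 (-1.65, adjusted p = 0.045, limma) and was at -0.92 without replicate 1. Bag3, its partner in the removal of damaged Z-disc proteins, measured 10.75, 10.59 and 10.63 at 1 day and 9.94, 9.83 and 10.12 at 7 days. The 1-day animals were close to each other for Bag3, and the difference was -0.69 (SE 0.15). The small heat shock proteins Hspb7, at -0.93 (SE 0.29), and Hspb1, at -0.76 (SE 0.22), were also lower without overlap, whereas Fkbp4, a cochaperone of steroid receptors, was at 0.45 (SE 0.27) with overlapping groups, or 0.23 without 1-day replicate 1.

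Translation factors followed the same direction in 17 of 19 members, with 2 above 0, a median of -0.16 and 5 separated lower (8.79% of all genes). Without SCI-ES 1 day replicate 1 the median was -0.07. Eif3a, the largest subunit of an initiation complex, measured 10.26, 9.98 and 10.01 at 1 day and 9.59, 9.52 and 9.69 at 7 days, a difference of -0.48 (SE 0.11). Cytosolic ribosomal proteins did not follow it, with 23 of 39 members above 0, 16 below and a median of 0.02. Folding genes of the endoplasmic reticulum were also split, with 11 above and 10 below and a median of 0.04. Enzymes of methionine salvage and polyamine synthesis lay below 0 in 12 of 17 genes and above in 5, with a median of -0.18, or -0.03 without 1-day replicate 1. Among them Sms, spermine synthase, differed by -0.74 (SE 0.24), or -0.49 without that array, and Adi1, a methionine salvage dioxygenase, by -0.65 (SE 0.19), both without overlap.

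**Figure D3:**
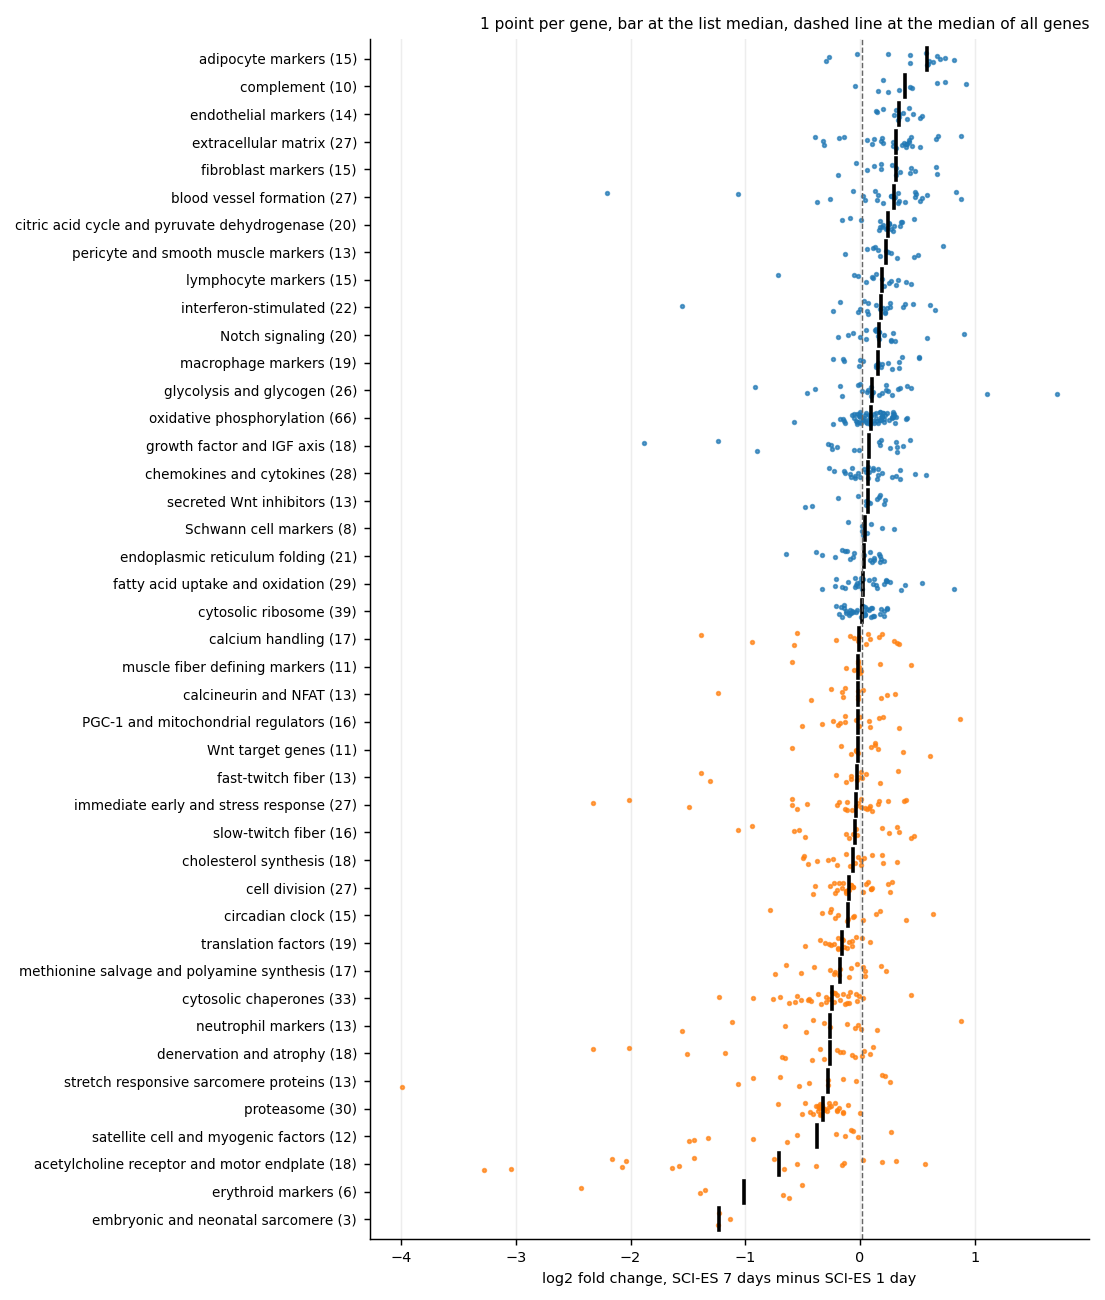
Log2 fold change (SCI-ES 7 days minus SCI-ES 1 day, horizontal) of every tested member of 43 gene lists (rows, with the number of members), a black bar at each list's median and a dashed line at 0.02, the median of all genes. Medians ran from -1.23 for 3 embryonic sarcomere genes and -0.71 for 18 endplate genes to 0.59 for 15 adipocyte genes.

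Over all 6 arrays the genes that were separated and at least 1.5 fold higher at 7 days were fewer than those lower, a balance that turned without SCI-ES 7 days replicate 3. Klf10, a transcription factor induced by TGF-beta, measured 8.16, 8.52 and 8.45 at 1 day and 9.16, 8.89 and 9.44 at 7 days, a difference of 0.79 (SE 0.16). G0s2, an inhibitor of the lipase that starts the breakdown of stored fat, measured 7.43, 8.01 and 8.55 at 1 day and 9.41, 8.98 and 9.45 at 7 days, a difference of 1.29 (SE 0.28, 2.44-fold). Pfkfb3, which makes a potent activator of glycolysis, measured 7.48, 8.01 and 9.03 at 1 day and 10.15, 9.40 and 10.11 at 7 days, a difference of 1.71 (SE 0.44, 3.28-fold). In none of these genes did the groups overlap, and none passed in either of the alternatives that gave calls. Axin2, a feedback inhibitor and common readout of Wnt signaling, measured 7.41, 7.72 and 7.49 at 1 day and 7.95, 7.96 and 8.53 at 7 days, a difference of 0.61 (SE 0.15). Shd, an SH2 domain adaptor, measured 6.56, 6.88 and 6.32 at 1 day and 7.15, 7.13 and 7.38 at 7 days, a difference of 0.63 (SE 0.15) that passed without 1-day replicate 2 (adjusted p = 0.037, limma). The other genes of smallest p in this direction were Zp2, known as an egg coat protein, at 1.22 (SE 0.29), the torsin family ATPase Tor4a at 0.59 (SE 0.15), and the olfactory receptor genes Or1o1 at 0.86 (SE 0.20), Or4c112 at 0.60 (SE 0.14) and Or10aa3 at 0.59 (SE 0.13). The 3 olfactory receptor genes had values of 3.44 to 5.56 on the 6 arrays, in the lower part of the array's range of 2.104 to 14.26.

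The largest positive difference was that of Aqp4, the water channel of fast fiber membranes, which measured 6.04, 9.97 and 9.14 at 1 day and 11.08, 10.63 and 11.44 at 7 days. The groups did not overlap, but the 1-day animals were spread over nearly 4 log2 units, and the difference of 2.67 (SE 1.19, 6.34-fold) was 1.496 without 1-day replicate 1. Acsl6, which activates long-chain fatty acids, and Fzd4, a Wnt receptor, had the same shape. Acsl6 measured 8.16, 10.19 and 10.34 at 1 day and 10.82, 10.55 and 11.23 at 7 days (1.30, SE 0.55, and 0.60 without 1-day replicate 1). Fzd4 measured 9.36, 11.21 and 10.99 at 1 day and 11.83, 11.44 and 11.61 at 7 days (1.11, SE 0.46, and 0.53 without it). Cish, an inhibitor of cytokine receptor signaling, instead had close 1-day values of 7.26, 6.96 and 7.07, below 8.63, 7.65 and 8.15 at 7 days, a difference of 1.05 (SE 0.35).

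**Figure D4:**
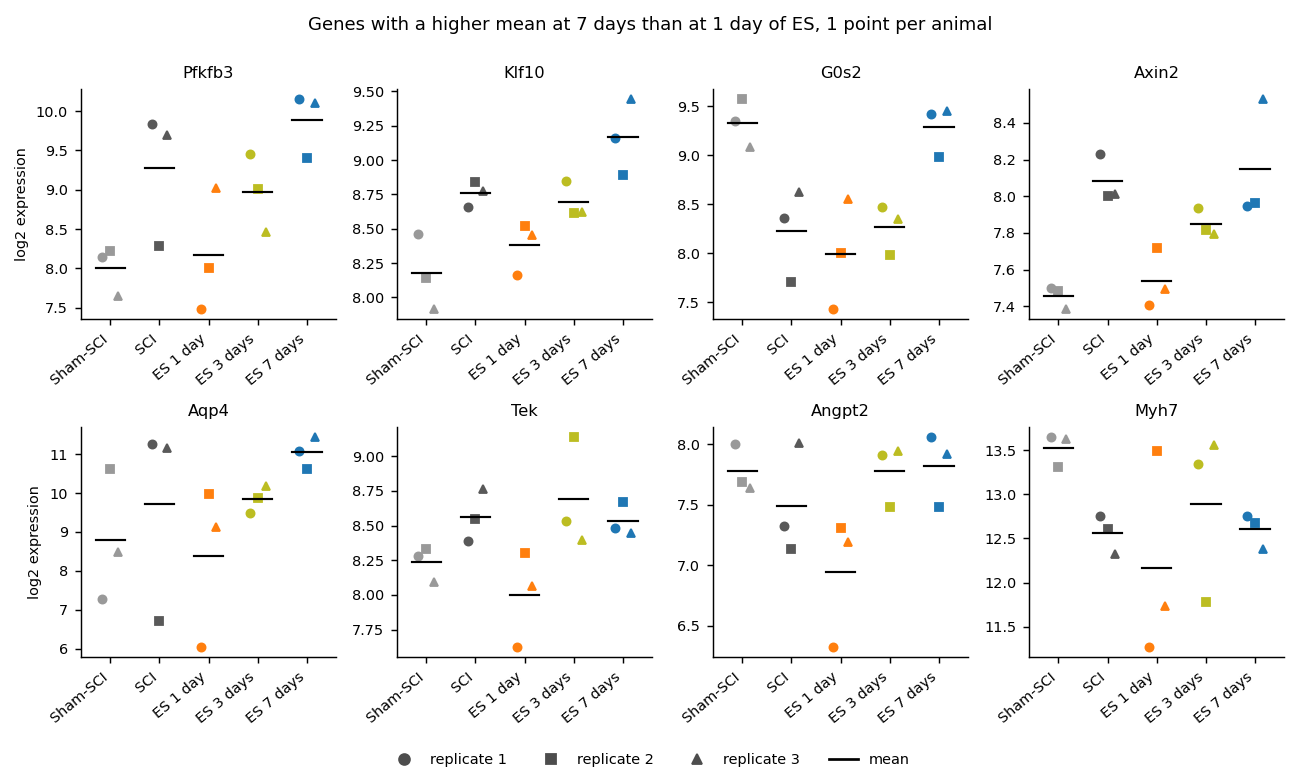
Log2 expression (vertical) of 8 genes with a higher mean at 7 days in the 5 groups of the SCI experiment, 1 point per animal with the symbol giving the replicate and a line at the group mean. The blue 7-day points lie above all orange 1-day points in each panel but that of Myh7, and 1-day replicate 1 is the lowest 1-day point for Aqp4 at 6.04.

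Blood vessel genes lay mostly above 0, by amounts that were smaller without SCI-ES 1 day replicate 1. Of 14 endothelial markers 14 were above 0 and 0 below, with a median of 0.34, and 3 were separated higher (6.52% of all genes) and 0 lower. None was called. Tek, the endothelial receptor of angiopoietins, measured 7.63, 8.30 and 8.06 at 1 day and 8.48, 8.67 and 8.45 at 7 days, a difference of 0.54 (SE 0.20). Egfl7, a secreted endothelial protein, differed by 0.46 (SE 0.24). Without 1-day replicate 1, the lowest array of the group for endothelial genes, these values were 0.35 and 0.12, and the median of the endothelial list was 0.13. Of 13 pericyte and smooth muscle markers 12 lay above 0 and 1 below, with a median of 0.23 (0.08 without 1-day replicate 1), among them Kcnj8, a pericyte potassium channel, at 0.51 (SE 0.18) without overlap. In the wider list of blood vessel formation, 22 of 27 genes lay above 0 and 5 below, with a median of 0.30 that was 0.09 without 1-day replicate 1. Angpt2, the angiopoietin of vessel remodeling, measured 6.32, 7.31 and 7.19 at 1 day and 8.06, 7.48 and 7.92 at 7 days, a difference of 0.88 (SE 0.27), or 0.57 without 1-day replicate 1. In the opposite direction in that list were alpha adrenergic receptors. Adra1a measured 8.45, 7.35 and 7.87 at 1 day and 6.85, 6.88 and 6.74 at 7 days, a difference of -1.06 (SE 0.23). This difference passed without 1-day replicate 2 (-1.33, adjusted p = 0.0205, limma) and was -0.78 without replicate 1. Adra1b measured 8.92, 5.57 and 6.07 at 1 day and 4.34, 4.71 and 4.89 at 7 days, a difference of -2.21 (SE 0.75), or -1.17 without 1-day replicate 1.

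Notch and Wnt pathway genes gave smaller values. Of 20 Notch genes 17 lay above 0 and 3 below, with a median of 0.16, or 0.08 without SCI-ES 1 day replicate 1. Of these 2 were separated higher, against 6.52% of all genes. Dll4, the Notch ligand of sprouting vessels, measured 6.58, 7.43 and 7.28 at 1 day and 7.47, 7.58 and 7.99 at 7 days, a difference of 0.58 (SE 0.24) that was 0.32 without 1-day replicate 1. The target genes Hey2 at 0.90 (SE 0.30) and Hey1 at 0.21 (SE 0.17) had overlapping groups. For Hey2 the overlap came from 1-day replicate 2, at 6.96 beside 5.78 and 5.60. Without that array the difference was 1.33 and passed (adjusted p = 0.026, limma), whereas it was 0.74 without replicate 1 and 0.65 without replicate 3. Secreted Wnt inhibitors were spread around 0, with 9 of 13 above, 4 below and a median of 0.07. Among them Sfrp1 was at -0.48 (SE 0.40) with overlapping groups, or -0.03 without SCI-ES 7 days replicate 3. Wnt target genes were also split, 5 of 11 above and 6 below, with Axin2 and Myc at the ends of the range, and the coreceptor Lrp5 differed by 0.41 (SE 0.27), or 0.08 without 1-day replicate 1 and 0.82 without replicate 2.

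Values for fiber type genes depended on single animals. Slow-twitch genes lay above 0 in 6 of 16 members and below in 10, with a median of -0.05. None was separated in either direction, against 15.3% of all genes. Without SCI-ES 1 day replicate 2 the median was 0.46. Myh7, the slow myosin heavy chain, measured 11.27, 13.49 and 11.74 at 1 day and 12.76, 12.68 and 12.38 at 7 days. The 7-day values lay between those of the 1-day animals, and the difference of 0.44 (SE 0.50) was 1.10 without replicate 2 and -0.01 without replicate 1. Myl3, a slow light chain, measured 12.97, 13.72 and 12.50 at 1 day and 13.49, 13.56 and 13.54 at 7 days. Without replicate 2 its difference went from 0.47 to 0.79 and passed the test (adjusted p = 0.031, limma). Without 1-day replicate 3 it was 0.19. Fast-twitch genes had a median of -0.03 with 5 of 13 above 0 and 8 below, and the calcium-binding protein Pvalb at the lower end, -1.39 (SE 0.87) with overlapping groups, or -0.73 without SCI-ES 7 days replicate 2. Calcium handling genes lay above 0 in 8 of 17 members and below in 9, with a median of -0.01.

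Metabolic genes behaved in part like the slow-fiber genes. Genes of fatty acid uptake and oxidation had a median of 0.03, with 17 of 29 above 0 and 12 below, and a median of 0.41 without 1-day replicate 2 and of -0.17 without replicate 1. Their list mean was 9.54, 10.86 and 10.12 on the 1-day arrays and 10.22, 10.27 and 10.30 on the 7-day arrays, so that the 7-day animals were close together in the middle of a wide 1-day range. Enzymes of the citric acid cycle and pyruvate dehydrogenase lay above 0 in 18 of 20 genes and below in 2, with a median of 0.24. That median was 0.02 without 1-day replicate 1 and 0.41 without replicate 2. None of these enzymes was separated, against 15.3% of all genes. Subunits of oxidative phosphorylation lay above 0 in 49 of 66 genes and below in 17, with a median of 0.09. Here the median turned to -0.07 without 1-day replicate 1, and none of the subunits was separated. Sdha, a subunit of succinate dehydrogenase, measured 10.83, 11.98 and 11.47 at 1 day and 11.75, 11.75 and 12.01 at 7 days, a difference of 0.41 (SE 0.25), or 0.11 without 1-day replicate 1. Among regulators of mitochondria the list was split, 6 of 16 above and 10 below, with a median of -0.02. That median was -0.24 without 1-day replicate 1 and 0.12 without replicate 2. Pprc1, a PGC-1 family coactivator that rises early after stimuli, measured 7.31, 7.02 and 7.15 at 1 day and 6.93, 6.56 and 6.49 at 7 days, a difference of -0.50 (SE 0.14), while Ppargc1a, the main coactivator of mitochondrial genes, differed by 0.34 (SE 0.35) with overlapping groups, and by -0.19 without 1-day replicate 1. Glycolysis and glycogen genes lay above 0 in 20 of 26 members and below in 6, with a median of 0.11, or 0.02 without 1-day replicate 1, and Pfkfb3 at the upper end.

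**Figure D5:**
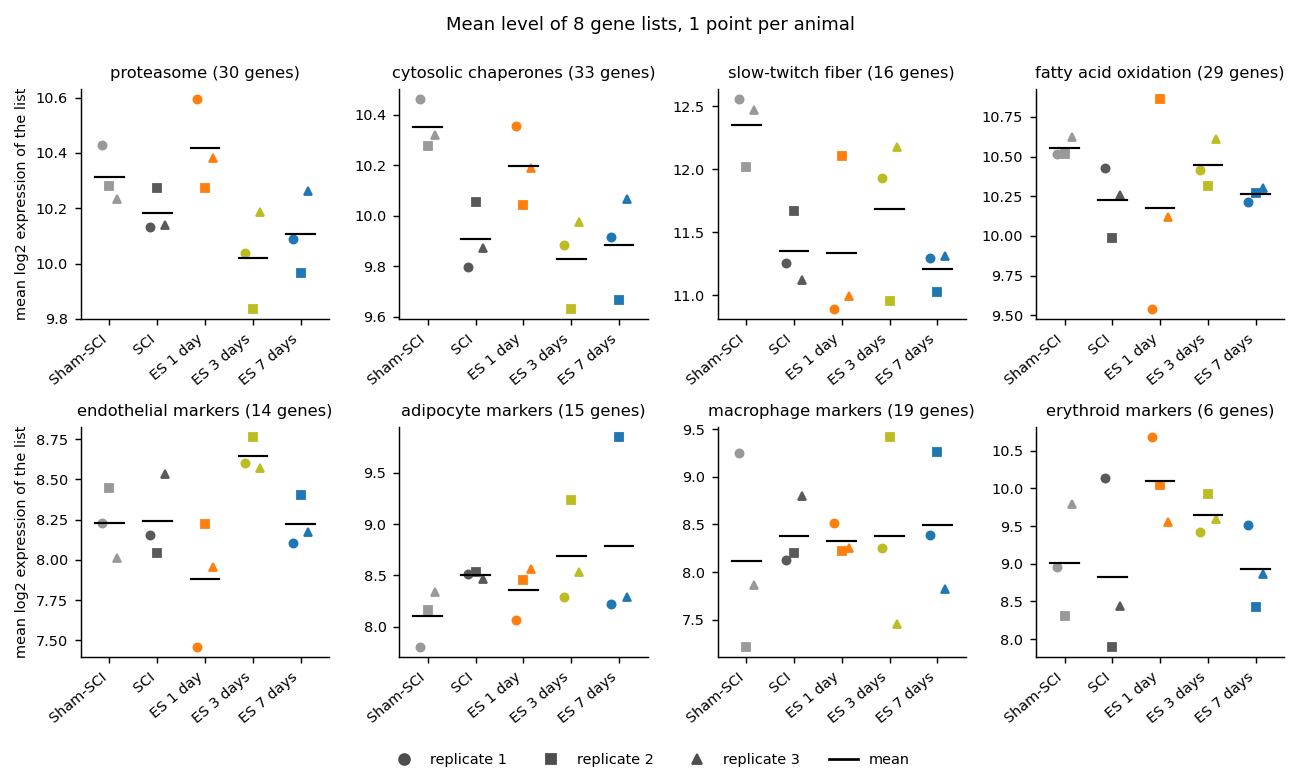
Mean log2 expression (vertical) of 8 gene lists in the 5 groups of the SCI experiment, 1 point per animal with the symbol giving the replicate and a line at the group mean. Proteasome genes lie at 10.27 to 10.59 at 1 day and 9.97 to 10.26 at 7 days. Among the 1-day and 7-day points, single animals stand out for slow-fiber genes (1-day replicate 2, 12.11) and adipocyte genes (7-day replicate 2, 9.85). For slow-fiber genes the Sham-SCI mean is higher still, at 12.35.

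Markers of other cells in the muscle differed between the groups to different degrees, and in whole muscle fewer cells of a type and less RNA per cell cannot be told apart. Erythroid markers lay below 0 in 6 of 6 genes, with a median of -1.01, or -0.61 without 1-day replicate 1. Of these 6 genes 1 was separated lower (8.79% of all genes). Their mean was 10.68, 10.05 and 9.56 at 1 day and 9.51, 8.43 and 8.86 at 7 days, just without overlap. Ahsp, the chaperone of alpha globin in young red cells, measured 9.25, 8.94 and 8.19 at 1 day and 6.49, 5.98 and 6.62 at 7 days, a difference of -2.43 (SE 0.81). Its values in the SCI group, 9.10, 5.80 and 6.23, spanned the same range, and a part of red cell content in the other differences was not tested. Neutrophil markers lay below 0 in 10 of 13 genes and above in 3, with a median of -0.26 and S100a9, a neutrophil calcium-binding protein, at -1.55 (SE 0.41) with overlapping groups.

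Macrophage markers lay above 0 in 15 of 19 genes and below in 4 (median 0.16), fibroblast markers in 13 of 15 and 2 (median 0.31), extracellular matrix genes in 22 of 27 and 5 (median 0.32), complement genes in 9 of 10 and 1 (median 0.39), and adipocyte markers in 12 of 15 and 3 (median 0.59). No member of the macrophage, fibroblast, matrix or adipocyte lists was separated (15.3% of all genes), and 1 complement gene was separated higher (6.52%). In the macrophage, fibroblast, matrix and complement lists the 7-day group held both the highest and the lowest of the 6 arrays, with macrophage list means of 8.39, 9.26 and 7.82 and matrix list means of 10.41, 10.86 and 9.11 at 7 days. Without SCI-ES 7 days replicate 2 the medians were -0.19 for macrophage, 0.11 for fibroblast, 0.03 for matrix, -0.003 for complement and -0.09 for adipocyte genes. Without SCI-ES 7 days replicate 3 they were larger instead, at 0.44, 0.66, 0.73, 0.76 and 0.87 in the same order. Interferon-stimulated genes lay above 0 in 18 of 22 and below in 4, with a median of 0.19, and Ifit2, a protein that blocks translation of foreign RNA, measured 6.93, 7.28 and 7.21 at 1 day and 7.87, 8.06 and 7.45 at 7 days (0.65, SE 0.18). Lymphocyte markers had a median of 0.19 (12 of 15 above), Schwann cell markers 0.04 (7 of 8 above), and genes of cell division -0.10 (9 of 27 above).

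The levels of the other groups of the experiment are given as a description with no test, since the genes were chosen for the distance between the 1-day and 7-day arrays. Of the 221 genes that were separated and at least 1.5 fold lower at 7 days, the SCI-ES 3 days mean was nearer to the 7-day mean than to the 1-day mean for 201 (91.0%, against 62.0% of all genes). The mean of SCI, which had no ES, was nearer to the 7-day mean for 175 (79.2%, against 57.4%), and that of Sham-SCI for 131 (59.3%, against 49.8%). SCI muscle was taken 21 days after sham implantation, a time since surgery closer to that of the 7-day group than of the 1-day group. The part of that time in these shares was not tested. For Chrna1 the means were 11.003 in Sham-SCI, 11.55 in SCI, 12.31 at 1 day, 10.74 at 3 days and 9.03 at 7 days, so that the 7-day level was the lowest of the 5 groups. For Ankrd1 the means were 8.69 in Sham-SCI, 9.28 in SCI, 11.93 at 1 day, 8.41 at 3 days and 7.94 at 7 days. SCI replicate 2 lay high for both genes, at 13.46 for Chrna1, above each of the 1-day animals, and at 10.93 for Ankrd1, within their range. Of the 57 genes in the higher direction, the 3-day mean was nearer to the 7-day mean for 35 (61.4%, against 62.0% of all genes) and the SCI mean for 39 (68.4%, against 57.4%). The Sham-SCI mean was nearer to the 7-day mean for only 21 (36.8%, against 49.8%). Pfkfb3 had means of 8.01 in Sham-SCI, 9.27 in SCI, 8.17 at 1 day, 8.97 at 3 days and 9.89 at 7 days.

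Of 22 genes that the study's text names, 7 lay above 0 and 15 below, with a median of -0.29. In this list 8 were separated lower (8.79% of all genes) and 0 higher (6.52%). The study picked some of the 22 on the same arrays and others from pathways known in muscle, and cites Hey2 from other work. The direction of the list is therefore not independent evidence. Those not yet described lay close to 0 or overlapped. The calcineurin inhibitor Rcan2 was at -0.16 (SE 0.19), the calcium store protein Casq2 at -0.58 (SE 0.45), the Wnt inhibitor Sfrp2 at -0.42 (SE 0.63) and the Wnt transcription factor Lef1 at -0.08 (SE 0.13). Casq2 was at -0.21 without 1-day replicate 2 and at -1.06 without replicate 1. The slow troponins Tnnc1 and Tnni1 were at -0.06 (SE 0.48) and -0.03 (SE 0.43), and at 0.51 and 0.58 without 1-day replicate 2. The coactivator Ppargc1b was at 0.09 (SE 0.32) and the Notch target Hes1 at 0.16 (SE 0.19).

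The overload experiment gives the same interval of days after GA in rats with an intact spinal cord, and the difference between the time courses (SCI-ES 7 days minus SCI-ES 1 day, less GA 7 days minus GA 1 day) was tested over all 33 arrays. Of 14453 genes 460 were called (3.18%), 141 with the ES value above the GA value (0.976%) and 319 below it (2.21%). With 1 array left out the count ran from 168, without GA 1 day replicate 3, to 575, without SCI-ES 1 day replicate 2. It was 182 without GA 7 days replicate 3 and 250 without its replicate 2, and 189 without SCI-ES 7 days replicate 3, 306 without its replicate 1 and 240 without SCI-ES 1 day replicate 1. Pfkfb3 measured 8.53, 8.28 and 8.03 at GA 1 day and 7.38, 7.15 and 7.76 at GA 7 days, a difference of -0.85 where that under ES was 1.71, and the contrast was 2.57 (SE 0.55, adjusted p = 0.012, limma). Klf10 was also lower after 7 days of GA, with 9.02, 8.57 and 8.96 against 8.32, 8.16 and 8.45, and the contrast was 1.32 (SE 0.33, adjusted p = 0.027). In both genes the ES and GA arrays moved in opposite directions without overlap. Chrnd measured 9.42, 8.68 and 9.00 at GA 1 day and 9.31, 9.72 and 9.10 at GA 7 days, and its contrast was -3.38 (SE 0.76, adjusted p = 0.017). For Chrna1, at 9.93, 11.50 and 11.09 and then 10.12, 10.95 and 9.97 after GA, the contrast of -2.78 (SE 0.85) did not pass (adjusted p = 0.064). Myh3 and Actc1, the developmental myosin and actin genes, were higher at GA 7 days than at GA 1 day by 2.48 and 2.56, and their contrasts were -3.72 (SE 0.90, adjusted p = 0.023) and -3.70 (SE 0.88, adjusted p = 0.022). For Ankrd1, which was 1.89 lower at GA 7 days on the log2 scale, the contrast of -2.10 did not pass (adjusted p = 0.37, limma). The genes given here were named for their ES values or by the study, and the ES difference is part of this contrast. The 2 experiments differ in spinal cord transection, age and the time since tenotomy as well as in ES, and these cannot be told apart. The Sham-GA arrays were not subtracted in this contrast. The part of recovery from the GA surgery itself in the GA values was therefore not tested.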

How the data were processed

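Total RNA of rat soleus was hybridised to Affymetrix arrays, 1 animal per array according to the study's methods. The authors deposited 1 table of 29214 rows by 33 arrays that holds log2 expression values after robust multi-array averaging (RMA), named with oligo in the submitters' processing notes without versions. Background, normalization and probe summary thus preceded every value here, and RMA compresses differences of dim genes. Rows with 1 gene symbol numbered 15310 and were used, whereas 13581 rows with none and 323 with several were left out. Where a gene had more than 1 row (527 genes), the brightest by its average on the 33 arrays was kept.

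Groups came from the sample labels. limma 3.58.1 (R 4.3.3) was used for linear models of the 15 arrays of the SCI experiment with 1 coefficient per group, for genes with a mean of at least 3, with Benjamini-Hochberg adjustment. Calls needed both an adjusted p below 0.05 and a fold of 1.5 or more. The difference between the ES and GA time courses was fitted over all 33 arrays. The fits were tested on simulated data. The number of arrays limits the precision. No scan date or batch is given in the sources used here, so batches were not tested.

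Named genes were, per direction, the 10 separated genes of at least 1.5 fold with the smallest unadjusted p (since none was called), ends of the range or separated members of the lists, and genes that the study's text names. Named after their values were seen were Chrnb1, Chrng, Chrne, Musk, Runx1, Ncam1, Rapsn, Lrp4, Utrn, Mstn, Faah, Asb5, Tbx3, Msantd5, Skic2, Rnase17, Aqp4, Acsl6, Fzd4, Psmd11, Psma5, Hspb8, Hspb1, Bag3, Xirp2, Csrp3, Tek, Myf6, Cdkn1a, Fbxo32, Trim63, Cish and Klhl40, some of which the rule also names. The comparison, the genes and the lists were chosen with earlier results of these data known. Alternatives were other filters, scalings, ways to join rows, array sets, priors, the study's analysis of variance, a replicate block and leaving out each array. Summaries used pandas 2.3.3 and numpy 2.4.6 under Python 3.11.15, and plots matplotlib 3.10.9.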

Additional observations from a re-analysis of the deposited data

Results flagged for a closer look

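For 18 of the 100 named genes, the change from 1 to 7 days differed between ES after SCI and GA with an intact cord. The test was that of the difference itself (limma over 33 arrays, Benjamini-Hochberg adjusted), which called 3.18% of all genes. Most named genes were chosen by their ES difference, which is part of this contrast, so a higher share among them was built in. The ES value lay below the GA value for Myh3 (-3.72), Dclk1 (-3.72), Actc1 (-3.70), Chrnd (-3.38), Slc51a (-2.89), Sfrp2 (-2.76), Rnase17 (-2.24), Adi1 (-1.03), Msantd5 (-0.999), Tbx3 (-0.97), Skic2 (-0.76), Ppp1r11 (-0.73) and Pex6 (-0.59), as differences of log2 fold changes. It lay above the GA value for Pfkfb3 (2.57), Cish (1.60), Dll4 (1.33), Klf10 (1.32) and Or1o1 (0.999). ES, transection, age and time since tenotomy cannot be told apart in these values, and Sham-GA was not subtracted.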

How the results depend on the processing

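The count of 0 called genes held in every alternative run but 3. The fit of all 33 arrays gave 13, and leaving out 1 array gave 0 to 99, with 99 only without SCI-ES 1 day replicate 2. The analysis of variance at an unadjusted p gave 182, where the p is for any difference among the 5 groups. Separated genes of at least 1.5 fold ranged from 167 to 548 lower and from 62 to 450 higher with 1 array left out, where 3 against 2 arrays separate more easily. The highest counts came without SCI-ES 1 day replicate 2 (548 lower) and without SCI-ES 7 days replicate 3 (450 higher, beside 342 lower). The 460 calls for the difference between ES and GA became 168 to 575 with 1 array left out (168, 182, 189, 240, 250 and 306 in the 6 lowest cases). Deviations of same-numbered ES arrays had correlations of 0.19, -0.12 and 0.23, and those of differently numbered arrays ran from -0.30 to 0.20. With 3 arrays per group these values cannot show whether the numbers carry a pairing. With the replicate block 0 genes were called, and 372 for the difference between ES and GA. Of 100 named genes 10 changed sign in an alternative. Leaving out 1 array gave ranges that crossed 0 for Hes1 (-0.0214 to 0.281), Myh7 (-0.0061 to 1.10), Nr4a1 (-0.121 to 0.786), Nrap (-0.101 to 0.516), Ppargc1a (-0.190 to 0.651), Ppargc1b (-0.342 to 0.318), Psma7 (-0.108 to 0.0734), Sfrp2 (-1.12 to 0.101), Tnnc1 (-0.448 to 0.513) and Tnni1 (-0.390 to 0.582). Psma7 was at -0.0062 with each array centred on its median, and Tnni1 at 0.0218 after another quantile normalization. The causes were not tested. With 3 animals per group, a difference missed by the test is not shown to be absent.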
